A study of Musculus with 2 samples.

Results

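The genes described are 9 CXC chemokine ligands, Cxcl1, Cxcl2, Cxcl5, Cxcl9, Cxcl10, Cxcl12, Cxcl13, Cxcl14 and Cxcl16, and the receptor Cxcr4. They are 10 of the 32285 genes listed in the count matrices, and they were chosen by name, with earlier results of these data known. CXC chemokines are small secreted proteins (Cxcl16 is first made as a membrane protein) that direct leukocyte movement through G protein-coupled receptors. Cxcl1, Cxcl2 and Cxcl5 call neutrophils through Cxcr2. Cxcl9 and Cxcl10 are induced by interferons and call T and NK cells through Cxcr3. Cxcl12 acts on Cxcr4 and is also bound by the scavenger Ackr3, Cxcl13 calls B cells through Cxcr5, and Cxcl16 is the ligand of Cxcr6. In adipose tissue these genes are known from the stromal cells, macrophages and vessels that surround the adipocytes.

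The data are single-cell RNA counts of the stromal vascular fraction, which is what sinks when digested fat is spun and the floating adipocytes are discarded, from mouse subcutaneous white adipose tissue (sWAT). The LPCAT3-AKO library came from mice with the genotype label LPCAT3 knockout, and the control library from mice with the genotype label WT. Lpcat3 encodes an enzyme that remodels membrane phosphatidylcholine. The protocol gives an age of 5 weeks for both groups, while the series text gives 2 months and a CD diet. The labels name neither the Cre driver nor how many mice were pooled. Each group has 1 library, so no test between the groups is possible: all intervals cover counting error only and say nothing of the spread between mice.

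UMIs (unique molecular identifiers) each count 1 captured transcript. There were 119355147 in 12806 barcodes of the LPCAT3-AKO library and 111669076 in 13831 barcodes of the control library. After filters and doublet removal 10576 LPCAT3-AKO cells and 11191 control cells were kept, with a median of 8599.5 and 8078 UMIs. Of these, 36 barcodes occurred in both libraries. Lpcat3 itself was at 30.6 CPM in all kept LPCAT3-AKO cells and 26.7 CPM in control cells (CPM, the count scaled to 1000000 UMIs). The adipocyte genes Adipoq and Cidec were at 0.843 and 0.566 CPM in LPCAT3-AKO cells and at 1.09 and 0.583 CPM in control cells, so the libraries hold almost no adipocyte RNA and do not check the deletion there.

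Cells were assigned to classes by lists of marker genes that contain no CXC ligand or receptor. The gates gave 5731 LPCAT3-AKO and 5608 control fibroblasts (54.2% and 50.1% of kept cells), 2650 and 3805 macrophages (25.1% and 34.0%), 161 and 208 dendritic cells, 133 and 128 blood endothelial cells, and 230 and 198 lymphoid cells. A further 1356 LPCAT3-AKO cells and 1037 control cells passed no gate (12.8% and 9.27%). Fibroblasts were further split into interstitial progenitors (3377 and 3644 cells), committed preadipocytes (1179 and 778), F3-high cells (76 and 42), Ccn5 Mfap4 cells (208 and 126), interferon-high cells (326 and 589), dividing cells (46 and 10) and the rest (519 and 419). Committed preadipocytes made up 20.6% of LPCAT3-AKO fibroblasts and 13.9% of control fibroblasts, and interferon-high cells 5.69% and 10.5%. The fibroblast markers define this gate, so their detection does not check it. All 10 had UMIs in fibroblasts of both libraries, and also in macrophages. The macrophage markers, also used in the gates, summed to 294 CPM in LPCAT3-AKO and 248 CPM in control fibroblasts, against 17085.5 and 16609.5 CPM in macrophages.

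Each ligand had its own cellular pattern, and for the strongest sources the pattern was alike in both libraries. Cxcl1 was highest in fibroblasts, Cxcl2 in macrophages, Cxcl12 in blood endothelial cells and Cxcl16 in mature dendritic cells. Cxcl13 and Cxcl14 UMIs came almost entirely from fibroblasts. Cxcr4 was read in macrophages, dendritic cells and lymphoid cells, and hardly at all in the fibroblasts that supplied the largest share of Cxcl12 UMIs.

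**Figure D1:**
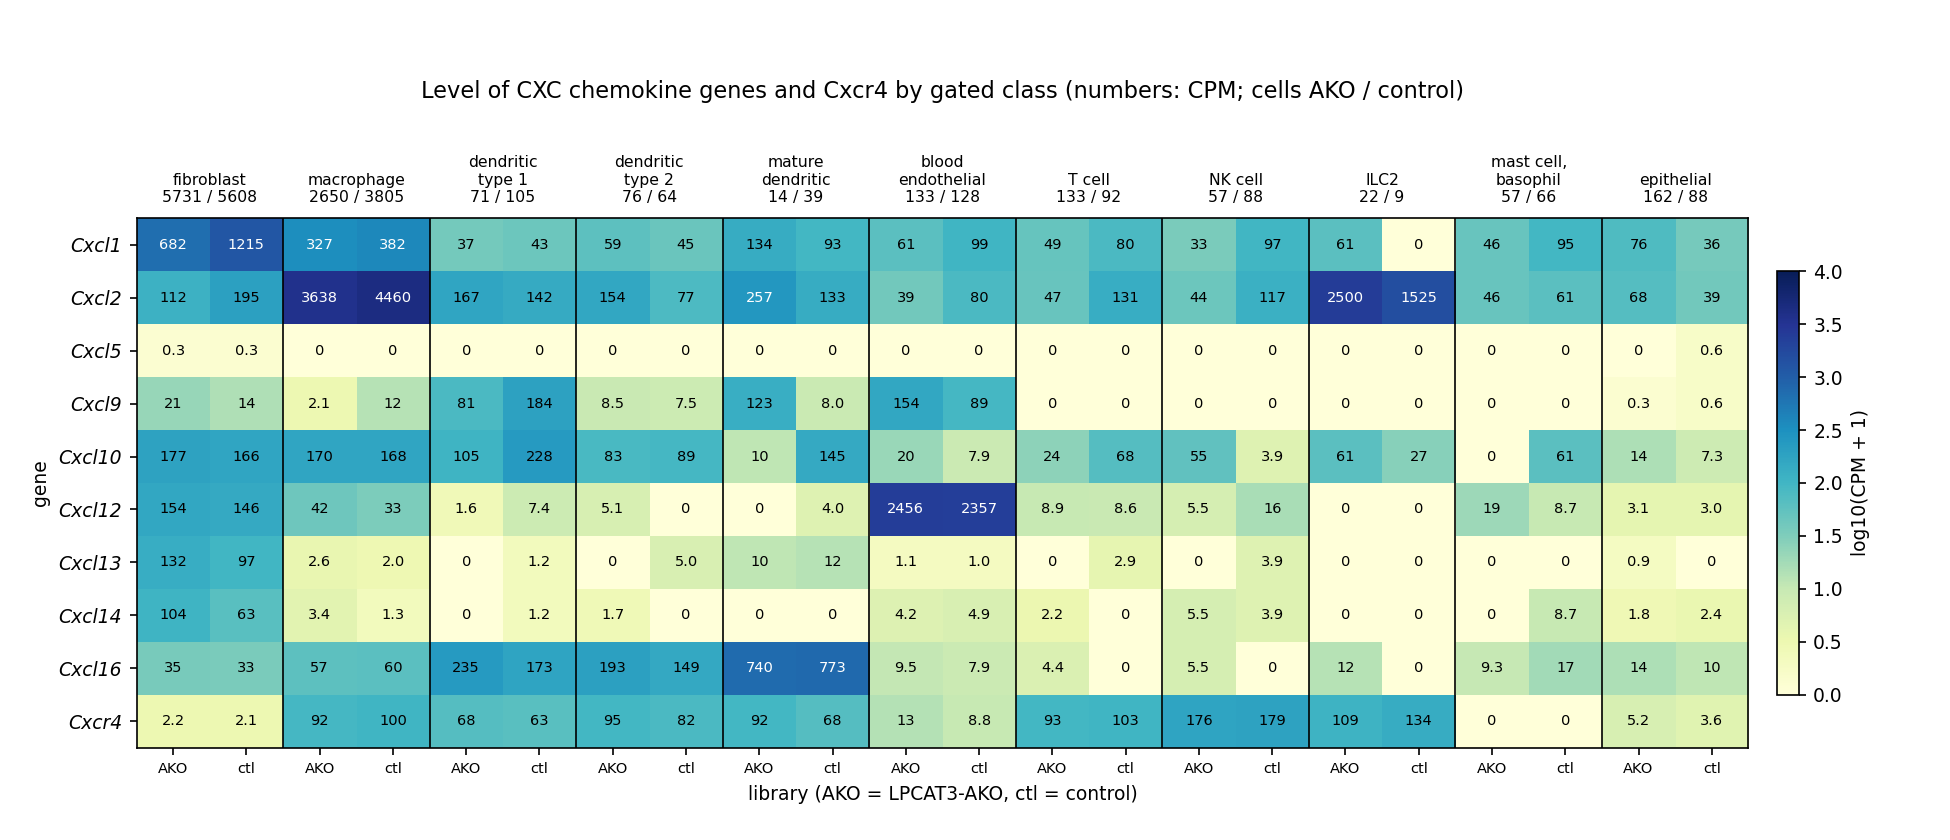
Summed level of each gene (rows) in each gated class and library (columns, LPCAT3-AKO left of control), written in CPM and coloured by log10(CPM + 1), with the number of cells above each class. Cxcl12 stands at 2456 and 2357 CPM in blood endothelial cells, Cxcl2 at 3638 and 4460 CPM in macrophages, and Cxcl5 is at or near 0 in every class shown.

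The comparison of the libraries used a rule of size: 20 CPM or more in at least 1 library, levels at least 1.5-fold apart, and a 95% counting interval of the ratio that leaves out 1. In fibroblasts 8 of the 10 genes reached 20 CPM. Of these 2 were higher in LPCAT3-AKO fibroblasts (Cxcl9 and Cxcl14) and 2 were lower (Cxcl1 and Cxcl2), where 1.32% of the 6058 genes at this level were higher and 0.776% were lower. In macrophages none of the 6 measured members passed in either direction, where 1.09% of genes were higher and 0.637% lower. In pooled dendritic cells 2 of 6 were lower and none higher, where 3.04% of genes were lower and 5.74% higher, and in blood endothelial cells 2 of 5 were higher and 2 lower, where 3.80% and 3.17% of genes were. Among lymphoid cells 1 of 4 was higher and 1 lower, where 3.47% and 5.70% of genes were; the higher one was Cxcl2 and the lower one Cxcl1. Of the lymphoid Cxcl2 UMIs, 206 of 239 in LPCAT3-AKO and 57 of 135 in control came from ILC2 cells. The median log2 ratio over the members was 0.08 in fibroblasts and -0.10 in macrophages, beside -0.00 and 0.04 over all measured genes.

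**Figure D2:**
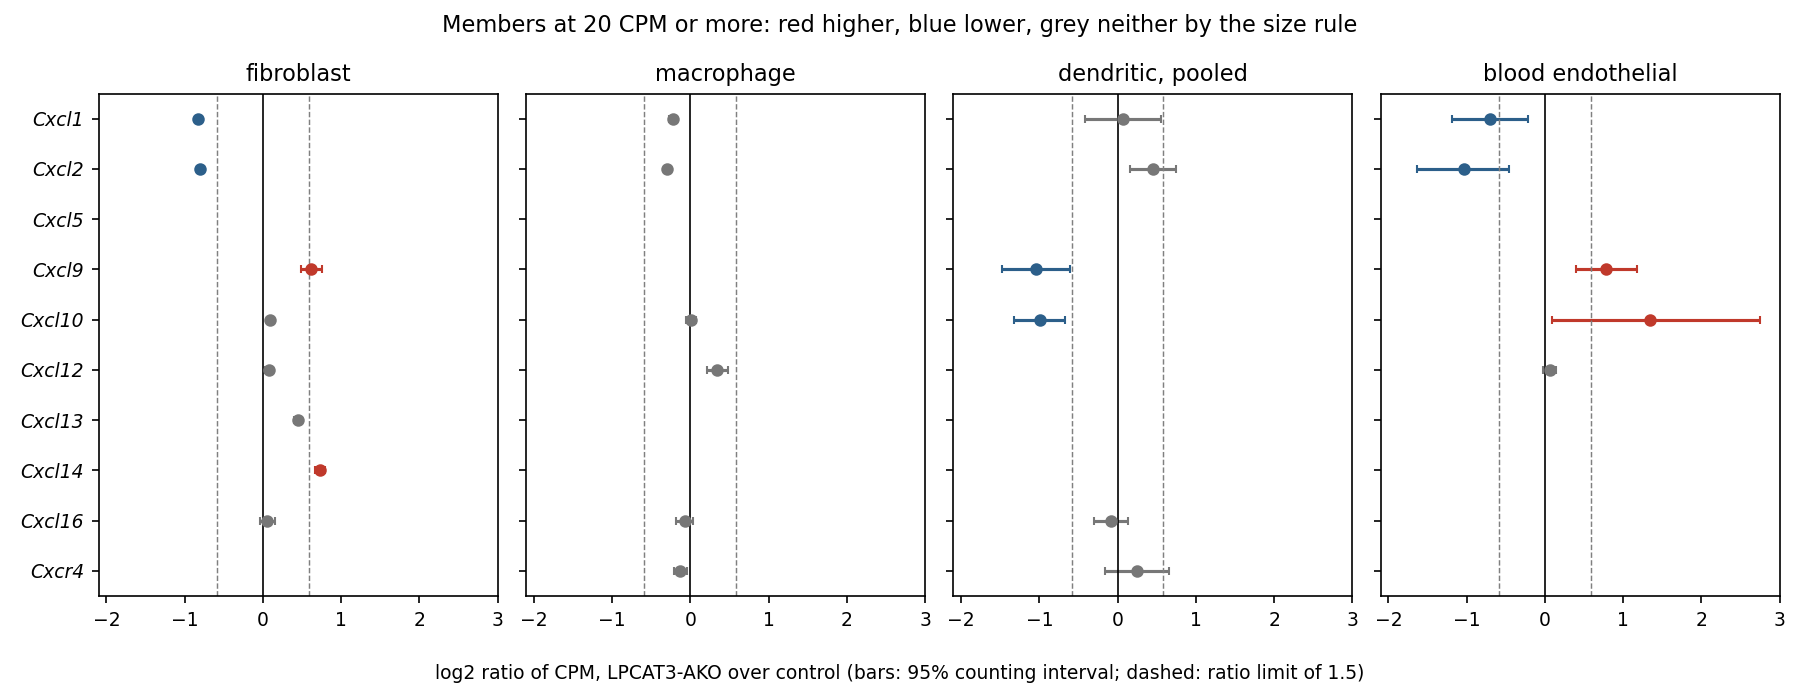
Log2 ratio of CPM, LPCAT3-AKO over control, for members at 20 CPM or more in fibroblasts, macrophages, pooled dendritic cells and blood endothelial cells; bars are 95% counting intervals and dashed lines the ratio limit of 1.5. Cxcl1 and Cxcl2 lie at -0.83 and -0.79 in fibroblasts with intervals narrower than the points, whereas the intervals in dendritic and endothelial cells are wide.

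Cxcl1 (ENSMUSG00000029380), a neutrophil attractant, was the member with the clearest difference. It stood at 682 CPM (95% Poisson interval 675 to 689) in LPCAT3-AKO fibroblasts and at 1215 CPM (1206 to 1225) in control fibroblasts, a log2 ratio of -0.83 or 1.78-fold lower in LPCAT3-AKO. Fibroblasts held 75.0% of all Cxcl1 UMIs in the LPCAT3-AKO library and 83.5% in the control library. The transcript was carried by fewer LPCAT3-AKO fibroblasts: 47.4% had a Cxcl1 UMI against 64.4% of control fibroblasts, at median depths of 9114 and 9380 UMIs. Thinned to 2000 UMIs per cell the shares were 30.7% and 45.6%, while T cells, which are not known as a source of Cxcl1, had 8.80% and 15.3% at the same depth. Among cells with a UMI the mean was 13.5 UMIs in LPCAT3-AKO and 17.5 in control.

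The lower Cxcl1 level was seen within fibroblast states. By state, 0 members were higher and 2 of 5 lower in interstitial progenitors (0.946% and 0.692% of genes), 0 higher and 4 of 8 lower in committed preadipocytes (0.887% and 1.10%), 1 higher and 1 of 7 lower in Ccn5 Mfap4 cells (2.83% and 2.31%), 2 higher and 1 of 8 lower in interferon-high cells (4.19% and 5.87%), and 1 higher and 2 of 7 lower in the remaining fibroblasts (2.86% and 4.55%). Interstitial progenitors, the Dpp4 and Pi16 stem-like cells of the adipose interstitium, had 904 CPM in LPCAT3-AKO and 1433 CPM in control (log2 ratio -0.66). Committed preadipocytes had 317 and 571 CPM (-0.85), and interferon-high fibroblasts 601 and 1233 CPM (-1.04). Each of these passed the size rule. Ccn5 Mfap4 cells had 296 CPM in LPCAT3-AKO and 431 CPM in control and did not reach the ratio limit. With the states weighted alike in both libraries the log2 ratio was -0.71. F3-high cells had the lowest Cxcl1 of the fibroblast states, with 73.8 CPM in 76 LPCAT3-AKO cells and 98.4 CPM in 42 control cells, whose intervals overlap.

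In macrophages Cxcl1 stood at 327 CPM in LPCAT3-AKO and 382 CPM in control, a ratio of 0.856 (0.830 to 0.882) that is inside the ratio limit. Lyz1 Retnla macrophages, a Lyve1-negative group, had the most, with 647 CPM (610 to 686) in LPCAT3-AKO and 666 CPM (633 to 701) in control. Interferon-high macrophages had 242 and 379 CPM, and were the macrophage state in which Cxcl1 was lower by the size rule (log2 ratio -0.64), where 3.10% of genes were lower. Monocytes had 241 and 161 CPM (63 and 31 cells), and mural cells, few in number (16 and 8), had 15 and 22 UMIs. T, NK, mast, endothelial and pooled dendritic cells had 4.28% to 8.95% of the fibroblast level of their own library. Fibroblast genes that these classes do not make gave a yardstick for free RNA: Dcn, Col1a1 and Col3a1 lay between 0.788% and 3.49% of the fibroblast level in the same classes. The part of free RNA in the Cxcl1 differences of endothelial and lymphoid cells was not tested.

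Cxcl2 (ENSMUSG00000058427), which shares its receptor and much of its sequence with Cxcl1, was a macrophage transcript. It stood at 3638 CPM (3613 to 3663) in LPCAT3-AKO and 4460 CPM (4434 to 4485) in control macrophages, which held 68.2% and 79.3% of its UMIs. The ratio of 0.816 (0.809 to 0.823) did not reach the limit. Nearly all macrophages carried it: 83.1% of LPCAT3-AKO and 88.7% of control cells had a UMI, and 73.3% and 81.4% did after thinning to 2000 UMIs, where NK cells had 5.56% and 23.0%. By state the order was Lyz1 Retnla cells first (7398 and 7536 CPM, intervals overlapping), then the ungrouped remainder (6101 and 5866), dividing cells (4126 and 5082), and last resident cells (2920 and 3631) and interferon-high cells (2658 and 4451). Resident and interferon-high macrophages changed places between the libraries. Interferon-high macrophages were the state past the size rule for Cxcl2, 1.67-fold lower in LPCAT3-AKO. In that state 1 of 6 measured members was higher (Cxcl12) and 3 were lower (Cxcl1, Cxcl2 and Cxcl10), where 3.72% and 3.10% of genes were. Their median depth was 11813 UMIs in LPCAT3-AKO and 8685 in control, and the part of depth in the difference was not tested.

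**Figure D3:**
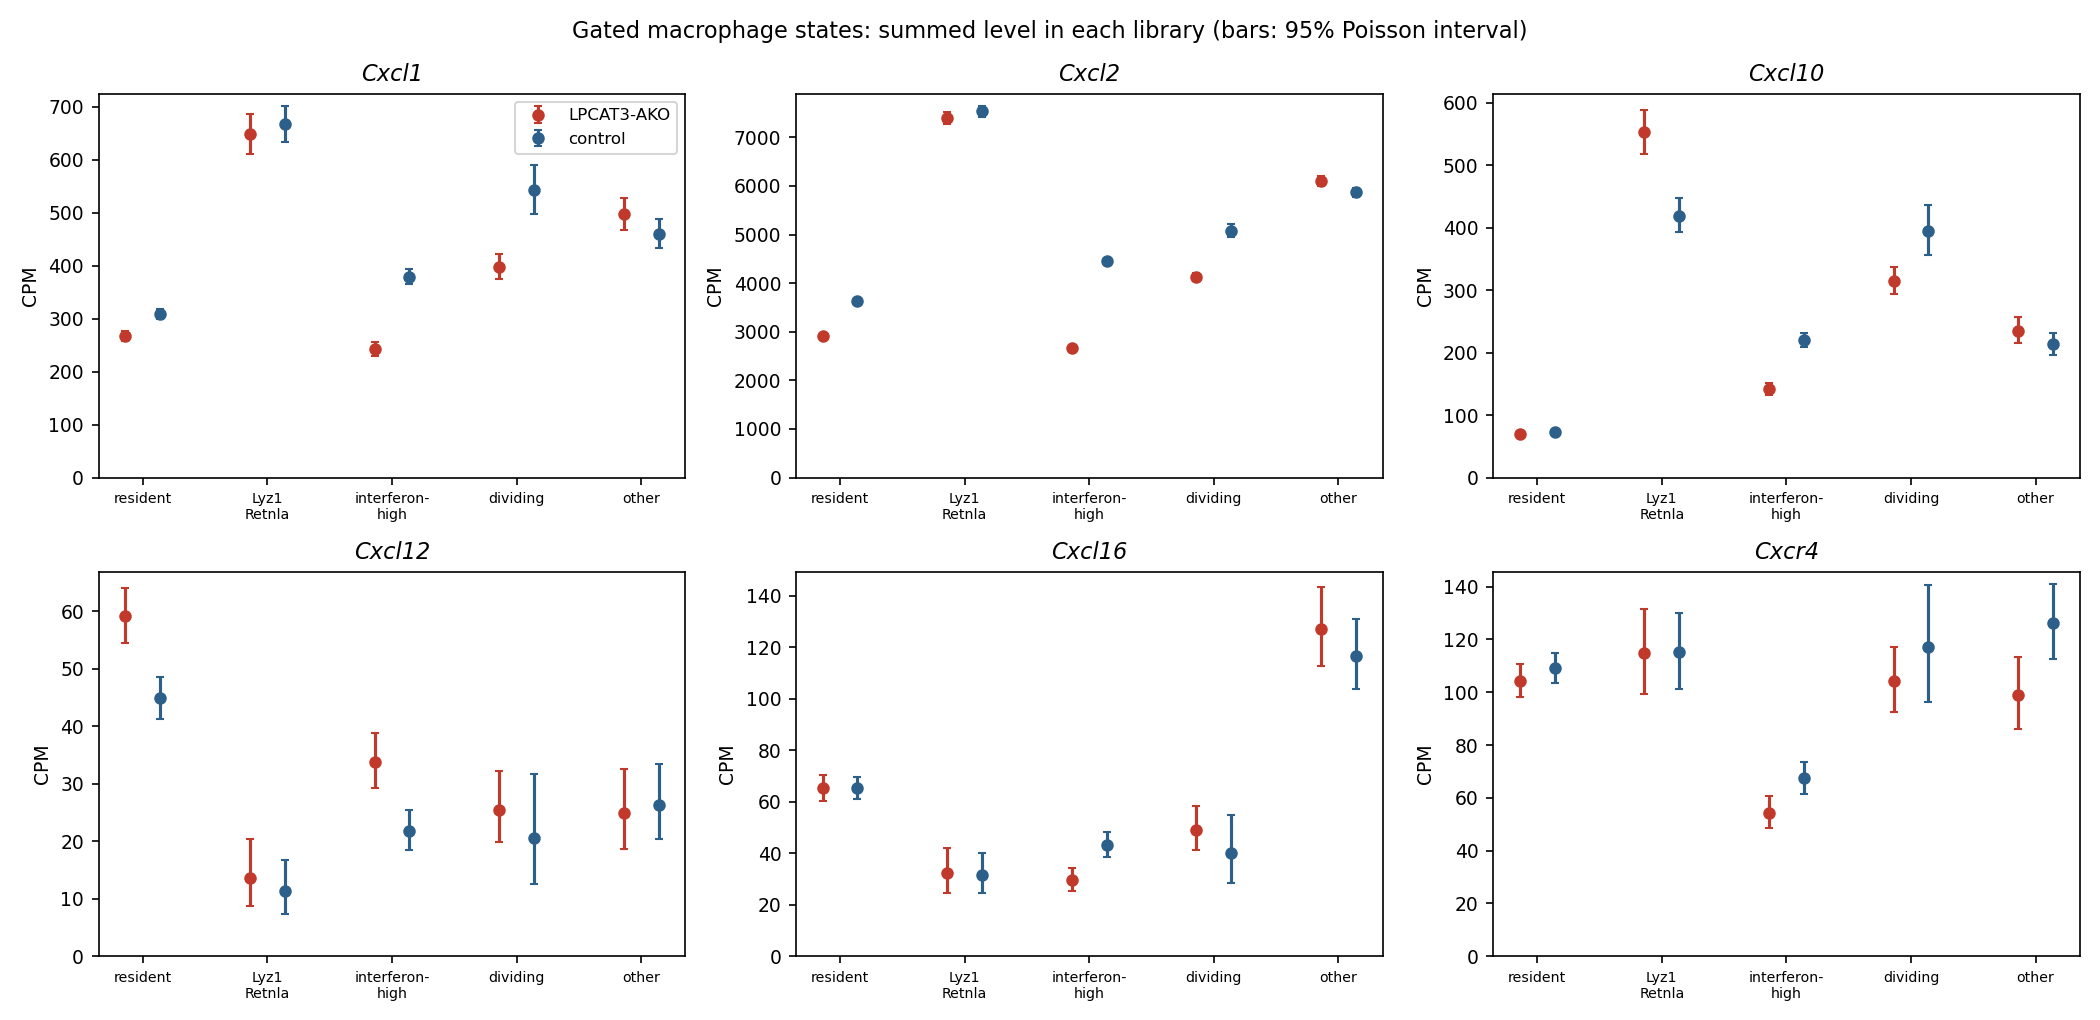
Level in CPM of 6 members in the gated macrophage states, LPCAT3-AKO in red left of control in blue, with 95% Poisson intervals. Cxcl1, Cxcl2 and Cxcl10 peak in Lyz1 Retnla cells, while Cxcl12 is highest in resident cells and Cxcl16 in the remaining cells.

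Fibroblasts had a low Cxcl2 signal, 112 CPM (109 to 115) in LPCAT3-AKO and 195 CPM (191 to 199) in control, 1.74-fold lower in LPCAT3-AKO. This was 3.08% and 4.37% of the macrophage level. The macrophage genes C1qa and C1qb lay at 0.848% to 0.904% of theirs in fibroblasts, but Apoe lay higher, at 5.70% and 4.81%. The part of free RNA in the fibroblast Cxcl2 signal was not tested. The difference was present in interstitial progenitors (133 and 218 CPM), committed preadipocytes (48.5 and 90.7 CPM) and Ccn5 Mfap4 cells (45.6 and 139 CPM). In the last of these 45.1% of the control UMIs came from 1 cell. In T, NK and mast cells Cxcl2 was at 1.21% to 2.94% of the macrophage level, and C1qa and C1qb were at 1.19% to 2.60%. Apoe was at 1.63% to 3.04% in T and NK cells, and at 50.1% and 32.1% in mast cells and basophils. The part of free RNA in the Cxcl2 signal of these classes was not tested, and no difference between the libraries is read from it. ILC2 cells, group 2 innate lymphocytes, were few: 22 LPCAT3-AKO and 9 control cells had 2500 and 1525 CPM of Cxcl2, of which 49.5% and 57.9% came from 1 cell each. Monocytes had 2613 and 1871 CPM (63 and 31 cells).

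Cxcl1 and Cxcl2 were found together in cells. At 2000 UMIs per cell, Cxcl2 was seen in 17.5% (15.7 to 19.4) of LPCAT3-AKO fibroblasts with Cxcl1 and in 7.60% (6.78 to 8.48) of those without it. In control the shares were 23.5% (21.8 to 25.2) and 11.7% (10.6 to 12.9). Ccl2, the monocyte attractant, followed the same split, in 27.7% and 6.95% of LPCAT3-AKO and 42.1% and 11.04% of control fibroblasts. Cxcl10 was likewise more frequent with Cxcl1 (21.8% against 5.08% in LPCAT3-AKO, 22.3% against 5.90% in control), whereas Cxcl14 was less frequent (6.92% against 10.6%, and 4.56% against 8.96%). In macrophages 89.8% of LPCAT3-AKO and 89.5% of control cells with Cxcl1 also had Cxcl2, against 67.4% and 77.4% of those without Cxcl1.

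Genes that respond to NF-kB, IL-1 and TNF were set beside Cxcl1 in fibroblasts. This list and the dissociation list were chosen with earlier results of these data known, so their counts and medians are a description only. Of the 11 measured in a list of 12, 5 were lower in LPCAT3-AKO and none higher, where 0.776% of all fibroblast genes were lower and 1.32% higher. Their median log2 ratio was -0.56, beside -0.00 over all measured genes. Ccl2 stood at 218 CPM in LPCAT3-AKO and 575 CPM in control fibroblasts. Tnfaip3, which ends NF-kB signalling, had 63.6 and 115 CPM, and Nfkbia, the inhibitor that NF-kB induces, 700.5 and 1080 CPM. Il6 stood at 104.5 CPM in LPCAT3-AKO and 109 CPM in control. Of 15 genes known to respond to tissue dissociation, 3 were lower (Fosb, Hspa1a and Hspb1) and 1 higher (Socs3), against the same shares of all genes, with a median of -0.25. Fos stood at 3116 and 3435 CPM, Jun at 1705 and 2025 CPM, and Hspb1 at 53.3 and 110 CPM. The part of dissociation in the Cxcl1 and Cxcl2 differences was not tested. In macrophages the corresponding medians were -0.11 over 10 measured genes and -0.06 over 14, and Ccl7 was the gene of the NF-kB list that was lower (662 and 1045 CPM).

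Epithelial cells had 75.8 and 35.7 CPM of Cxcl1 and 67.6 and 38.7 CPM of Cxcl2, both higher in LPCAT3-AKO by the size rule, where 8.24% of genes were higher and 6.79% lower. In the same cells 11 of the 15 dissociation and immediate early genes were higher and none lower (median log2 ratio 0.75), among them Fos (2631 and 1387 CPM) and Egr1 (844 and 325 CPM). Of 7 measured NF-kB list genes 5 were higher and 1 lower. Their part in the epithelial Cxcl1 and Cxcl2 differences was not tested.

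Cxcl5 (ENSMUSG00000029371), the other Cxcr2 ligand, was barely detected: 24 UMIs in all kept LPCAT3-AKO cells and 18 in control cells. Of these, 14 and 17 lay in fibroblasts. No UMI was seen in macrophages, which allows a level of up to 0.131 CPM in LPCAT3-AKO and 0.116 CPM in control. The related ligand Cxcl3 was at 2.80 and 4.71 CPM in macrophages, also below the level filter. Their receptor Cxcr2 had 8 UMIs in LPCAT3-AKO and 6 in control fibroblasts, and 11 and 1 UMIs in 4 and 1 gated neutrophils.

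Cxcl9 (ENSMUSG00000029417), an interferon gamma target, was a low and scattered transcript. Type 1 dendritic cells had 81.1 CPM (60.2 to 107) in LPCAT3-AKO and 184 CPM (156 to 216) in control, and blood endothelial cells 154 CPM (130 to 181) and 89.5 CPM (72.0 to 110). The order of these classes was opposite in the 2 libraries. Fibroblasts had 21.1 CPM (19.9 to 22.3) in LPCAT3-AKO and 13.7 CPM (12.7 to 14.7) in control, higher by the size rule with a ratio of 1.54 (1.40 to 1.69). Yet 18.0% of the control UMIs lay in 1 cell, and the states disagreed. By the size rule Cxcl9 was higher in interferon-high fibroblasts, where 4.19% of genes were. It was lower in committed preadipocytes (26.0 and 54.5 CPM), where 1.10% of genes were, with 34.0% of their control UMIs in 1 cell. Interstitial progenitors had 17.5 and 3.27 CPM, below the level filter. The fibroblast call for Cxcl9 was lost under 8 alternatives, but not always with a smaller ratio. Without the top cell of each library the log2 ratio was 0.78 and with the stricter gate 1.49, above the 0.59 of all fibroblasts, whereas it was 0.40 after thinning and 0.50 with the states weighted alike. The level lies close to the 20 CPM limit. In macrophages it had 2.10 and 12 CPM, and 311 control UMIs came from 40 cells. Cxcl9 was lower by the size rule in Lyz1 Retnla macrophages (2.27 and 45.6 CPM, from 4 and 101 UMIs), where 2.98% of genes were higher and 2.02% lower, and 69.3% of those control UMIs came from 1 cell. It was also lower in the ungrouped macrophages (9.86 and 64.7 CPM, from 21 and 163 UMIs), where 2.74% of genes were higher and 1.68% lower, with 34.4% of the control UMIs in 1 cell. T and NK cells had no Cxcl9 UMI.

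Cxcl10 (ENSMUSG00000034855), a target of both interferon types, was more widely spread. Fibroblasts had 177 CPM (174 to 181) in LPCAT3-AKO and 166 CPM (163 to 170) in control, and macrophages 170 CPM (164 to 175) and 168 CPM (163 to 173), so neither class differed by the size rule. The fibroblast total was made up differently in the 2 libraries. In LPCAT3-AKO 18.7% of fibroblasts had a UMI with a mean of 8.89 UMIs in those cells, while in control 26.4% had a UMI with a mean of 5.86. The shares run against the levels, so no order is read from them. The 10% of cells with most held 93.6% of the UMIs in LPCAT3-AKO and 81.0% in control. By state Cxcl10 was highest in interferon-high fibroblasts (336 and 297 CPM), with 211 and 167 CPM in interstitial progenitors, 123 and 177 CPM in Ccn5 Mfap4 cells and 57.8 and 45.0 CPM in committed preadipocytes. Among macrophages Lyz1 Retnla cells had 553 and 419 CPM and resident cells 69.4 and 73.1 CPM, so Lyve1-negative cells carried several times the level of resident cells in both libraries. Interferon-high macrophages had 141 and 220 CPM, lower by the size rule.

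**Figure D4:**
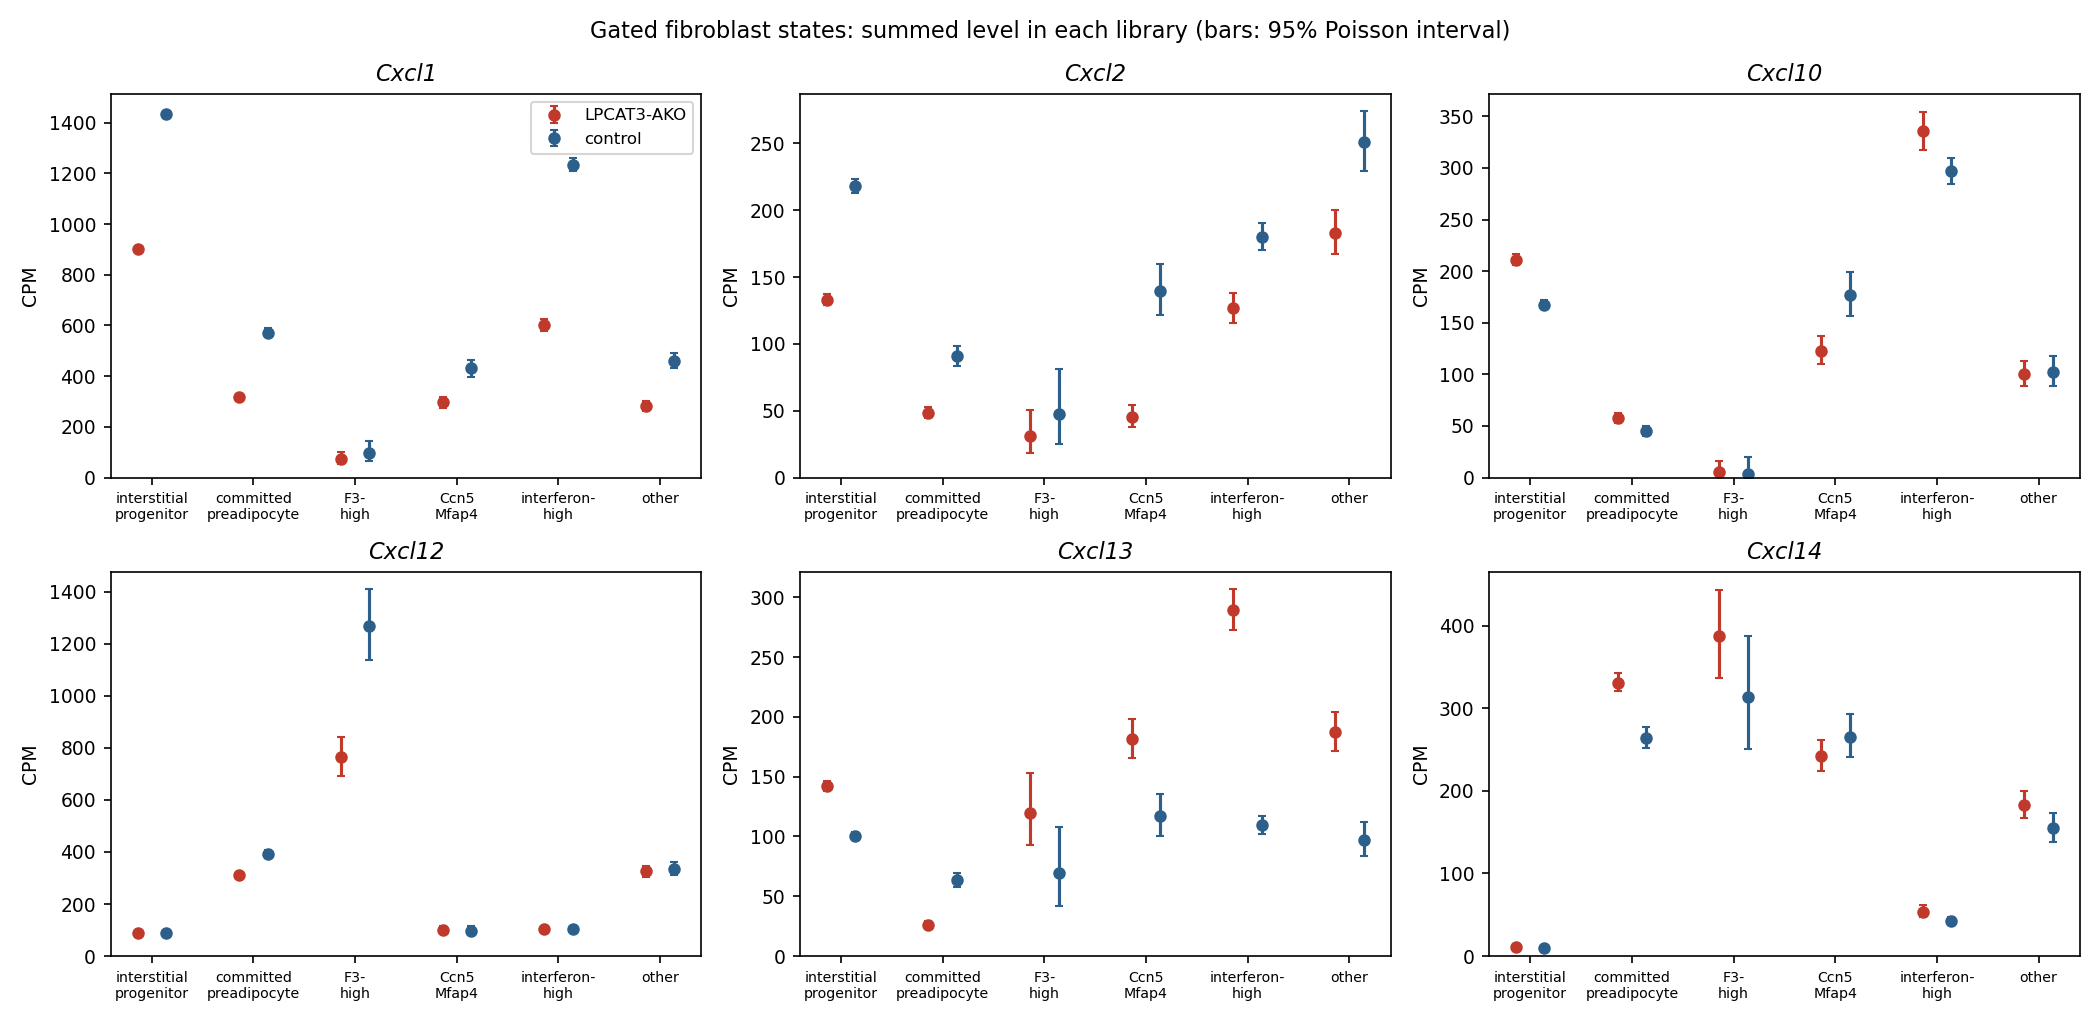
Level in CPM of 6 members in the gated fibroblast states, LPCAT3-AKO in red left of control in blue, with 95% Poisson intervals. Cxcl1 is lower in LPCAT3-AKO in interstitial progenitors (904 and 1433 CPM) and committed preadipocytes (317 and 571 CPM), Cxcl12 peaks in F3-high cells, and Cxcl14 separates committed preadipocytes (331 and 265 CPM) from interstitial progenitors (11.3 and 10.3 CPM).

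Dendritic cells had lower Cxcl9 and Cxcl10 in LPCAT3-AKO when all 3 types were pooled. Cxcl10 stood at 88.2 CPM in 161 LPCAT3-AKO cells and 176 CPM in 208 control cells, and Cxcl9 at 51.4 and 105 CPM. By type, type 1 cells had 105 and 228 CPM of Cxcl10, and type 2 cells 83.0 CPM (61.4 to 110) and 89.5 CPM (62.7 to 124), with overlapping intervals. Mature dendritic cells had 1 and 36 Cxcl10 UMIs in 14 and 39 cells. Cxcl9 was lower in type 1 cells (81.1 and 184 CPM), while type 2 cells had 8.47 and 7.45 CPM and mature cells 123 and 8.05 CPM, from 12 UMIs in 1 LPCAT3-AKO cell and 2 control UMIs. Classes taken from clusters placed 402 LPCAT3-AKO and 481 control cells among dendritic cells, and there neither gene passed. The log2 ratio of Cxcl10 was 0.11 in place of -0.99, and that of Cxcl9 -0.54 in place of -1.02. The largest of these clusters, of 555 cells, had a mean share of 0.492 for type 2 dendritic markers and 0.310 for monocyte markers. No cluster was named monocyte, so the clusters and the gates do not hold the same cells. In the gated, pooled dendritic cells 5 genes of the interferon gamma response list were measured. Of these 1 was higher (Gbp3, 29.9 and 17.1 CPM) and 1 lower (Irf1, 85.9 and 139 CPM), where 5.74% of all genes were higher and 3.04% lower.

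Endothelial Cxcl10 was low, at 20 CPM in LPCAT3-AKO and 7.87 CPM in control, and 63.2% of the 19 LPCAT3-AKO UMIs came from 1 cell. Without the top cell of each library its log2 ratio was 0.28, in place of 1.24, and the call was lost. It was also lost with median-of-ratios scaling, where the ratio was nearly as large (1.22); the level lies at the 20 CPM limit. Endothelial Cxcl9 kept a log2 ratio of 0.71 without its top cells, and had 0.24 as a mean over cells and 0.53 in clusters of 313 and 247 cells, both below the ratio limit. Endothelial Cxcl1 (61.1 and 99.3 CPM) and Cxcl2 (39.0 and 79.6 CPM) were lower by the size rule. Endothelial Cxcl1 was 8.95% and 8.17% of the fibroblast level, near the 6.79% and 7.85% of mast cells and basophils. The part of free RNA in its difference was not tested. In the clusters Cxcl1 had a log2 ratio of 0.05 and was no longer called, while Cxcl2 still passed (-0.74). The endothelial cluster had a mean share of 0.811 for endothelial and 0.437 for mural markers, and no cluster was named mural. Endothelial Cxcl2 was 1.07% and 1.79% of the macrophage level. C1qa was at 1.08% and 0.718% there, C1qb at 0.893% and 0.972%, and Apoe at 9.76% and 7.39%. In control T and NK cells, where no difference is read, Cxcl2 was at 2.94% and 2.61%. The part of free RNA in endothelial Cxcl2 was not tested. No difference between the libraries is read from endothelial Cxcl2 either. In control 34.6% of its UMIs came from 1 cell, and without the top cells the log2 ratio was -0.66.

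Fibroblasts with more interferon markers had more Cxcl10 in both libraries. Cells with none of the 10 markers had 39.7 CPM in LPCAT3-AKO and 73.7 CPM in control, and the level was higher in each further bin, up to 434 and 396 CPM with 9 or 10 markers. Median depth was also higher with more markers, at 6816.5 and 6967.5 UMIs with none and 11033 and 11892.5 UMIs with 9 or 10, and its part in these trends was not tested. In LPCAT3-AKO macrophages Cxcl10 was highest, at 208 CPM, with 3 or 4 markers, and in control macrophages, at 309 CPM, with 9 or 10. Macrophage Cxcl2 was 4595 CPM with no marker and 2234 CPM with 9 or 10 in LPCAT3-AKO, whereas the control bins lay between 4221 and 4723 CPM. Those values rest on 197 to 739 LPCAT3-AKO cells and 364 to 1102 control cells per bin. Median macrophage depth was 4797.5 UMIs in LPCAT3-AKO and 3929.5 in control with no marker, and 12790 and 9281.5 with 9 or 10. The part of depth in the macrophage values was not tested.

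**Figure D5:**
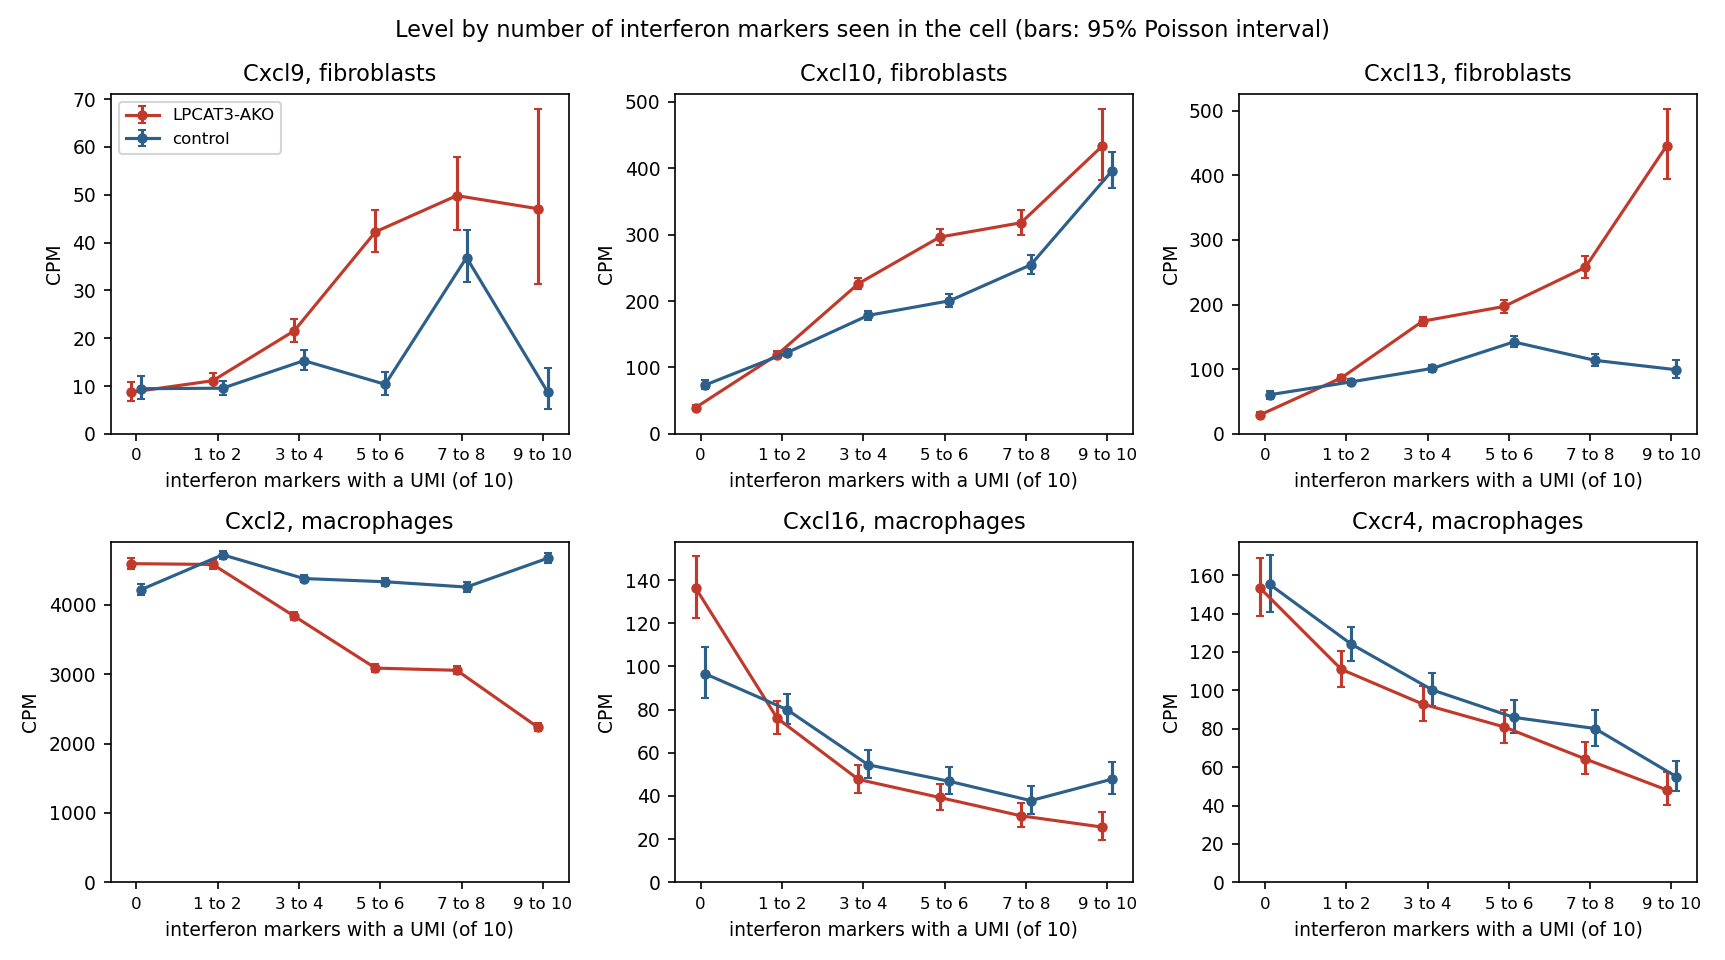
Level in CPM against the number of interferon markers with a UMI, for Cxcl9, Cxcl10 and Cxcl13 in fibroblasts and Cxcl2, Cxcl16 and Cxcr4 in macrophages, LPCAT3-AKO in red and control in blue, with 95% Poisson intervals. At 9 or 10 markers Cxcl13 stands at 446 CPM in LPCAT3-AKO and 99.1 CPM in control, and macrophage Cxcr4 at 48.1 and 55.0 CPM.

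Cxcl12 (ENSMUSG00000061353), the homeostatic ligand of Cxcr4, was led by vessels. Blood endothelial cells had 2456 CPM (2357 to 2558) in LPCAT3-AKO and 2357 CPM (2263 to 2453) in control, with overlapping intervals. A UMI was seen in 94.0% and 93.8% of endothelial cells, and in 86.0% and 87.6% at 2000 UMIs, against 0% and 1.16% of epithelial cells thinned in the same way. Because fibroblasts are so many, they still supplied 48.6% of all Cxcl12 UMIs in LPCAT3-AKO and 52.8% in control, and endothelial cells 13.7% and 16.6%. Cells that passed no gate supplied 31.8% and 24.4%, at 311 and 376 CPM. Clusters placed 313 LPCAT3-AKO and 247 control cells among blood endothelial cells, where the gates held 133 and 128. The endothelial share given here covers the gated cells only.

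Fibroblast Cxcl12 stood at 154 CPM (150 to 157) in LPCAT3-AKO and 146 CPM (142 to 149) in control, a log2 ratio of 0.08 that was -0.17 with the states weighted alike. F3-high cells had 764 CPM (692 to 841) and 1268 CPM (1139 to 1409), committed preadipocytes 311 and 391.7 CPM, and interstitial progenitors 88.1 (84.9 to 91.4) and 87.3 CPM (84.2 to 90.5), where the intervals overlap. The F3-high ratio was 0.602, but with 42 control cells that state was below the 50 cells set for a call. In macrophages Cxcl12 was low and tied to the resident state: 59.1 CPM in LPCAT3-AKO and 44.8 CPM in control resident cells, against 13.6 and 11.3 CPM in Lyz1 Retnla cells. Macrophages as a whole had 41.9 and 33.0 CPM. This was 27.2% and 22.6% of the fibroblast level, and 1.71% and 1.40% of the blood endothelial level. Dcn, Col1a1 and Col3a1 were read there at 1.19% to 1.94% of the fibroblast level. The part of free RNA in macrophage Cxcl12 was not tested. Interferon-high macrophages had 33.8 CPM in LPCAT3-AKO and 21.7 CPM in control, higher by the size rule, where 3.72% of genes were.

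The scavenger Ackr3 was read in the fibroblasts with little Cxcl12. Fibroblasts held 96.4% of its UMIs in LPCAT3-AKO and 97.2% in control. Interstitial progenitors had 534 and 604 CPM of Ackr3, committed preadipocytes 54.6 and 48.6 CPM, the reverse of the Cxcl12 order. Cell by cell at 2000 UMIs, 31.6% (29.1 to 34.3) of LPCAT3-AKO fibroblasts with Cxcl12 had Ackr3, and 49.1% (47.6 to 50.6) of those without. In control the shares were 36.7% (33.9 to 39.6) and 56.8% (55.3 to 58.3). Dpp4, a membrane protease that trims Cxcl12 and other chemokines, and one of the interstitial progenitor markers, had 535 and 517 CPM in interstitial progenitors. Ackr1, a decoy for several CXC ligands, was also a fibroblast transcript (95.3% and 97.5% of UMIs). In endothelial cells it had 31 UMIs in LPCAT3-AKO and 1 in control, with 51.6% of the LPCAT3-AKO UMIs in 1 cell.

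Cxcr4 (ENSMUSG00000045382) was read on the leukocytes. NK cells had 176 CPM (121 to 249) in LPCAT3-AKO and 179 CPM (131 to 238) in control. T cells (93.1 and 103 CPM), macrophages (91.8 and 100 CPM) and pooled dendritic cells (82.0 and 69.1 CPM) followed. In LPCAT3-AKO the intervals of these 3 overlap. In control that of macrophages (96.4 to 104) lies above that of dendritic cells (56.3 to 84.0). Blood endothelial cells had 12.6 and 8.85 CPM, fibroblasts 2.16 and 2.05 CPM. Mast cells and basophils had no UMI, which allows a level of up to 27.8 and 26.0 CPM. No class with 50 cells or more in both libraries differed by the size rule. Macrophages held 63.1% of Cxcr4 UMIs in LPCAT3-AKO and 75.5% in control. At 2000 UMIs 16.8% and 18.0% of macrophages had a UMI, against 0.485% and 0.427% of fibroblasts. Resident (104 and 109 CPM) and Lyz1 Retnla macrophages (115 and 115 CPM) had overlapping intervals, while interferon-high macrophages had 54.2 and 67.3 CPM. Macrophages with no interferon marker had 153 and 155 CPM of Cxcr4, and those with 9 or 10 markers 48.1 and 55.0 CPM. Median depth was higher with more markers, and its part in this order was not tested.

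Cxcl13 (ENSMUSG00000023078), the B cell attractant, was a fibroblast gene: 98.0% of UMIs in LPCAT3-AKO and 98.1% in control. Fibroblasts had 132 CPM (129 to 135) in LPCAT3-AKO and 96.6 CPM (93.9 to 99.3) in control, a ratio of 1.36 that did not reach the limit. Within states the direction was not uniform. It was higher in LPCAT3-AKO interferon-high cells (290 and 109 CPM, log2 ratio 1.40), in Ccn5 Mfap4 cells (181 and 117 CPM, 0.63) and in the remaining fibroblasts (187 and 97.0 CPM, 0.94), and lower in committed preadipocytes (26.0 and 63.3 CPM, -1.25). These passed the size rule, where 4.19%, 2.83% and 2.86% of genes were higher and 1.10% lower. Interstitial progenitors had 142 and 100 CPM, inside the ratio limit. Cxcl13 was at 29.3 CPM in LPCAT3-AKO fibroblasts with no marker and at 446 CPM in the 51 cells with 9 or 10, and in control at 60.5 CPM with no marker and at 99.1 CPM in 166 cells. The difference between these states was not tested. Its UMIs were concentrated, with 90.1% in the top 10% of LPCAT3-AKO fibroblasts and 84.3% in control. The receptor Cxcr5 had 6 and 4 UMIs in 18 and 9 B cells.

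Cxcl14 (ENSMUSG00000021508), a ligand whose receptor is still debated, marked the preadipocyte side of the fibroblasts, which held 95.2% and 95.8% of its UMIs. It was 1.66-fold higher in LPCAT3-AKO fibroblasts, with 104 CPM (102 to 107), than in control, with 63.0 CPM (60.9 to 65.2). No state reached the ratio limit. Committed preadipocytes had 331 and 265 CPM, F3-high cells 387 and 313 CPM with overlapping intervals, Ccn5 Mfap4 cells 242 and 266 CPM, and interstitial progenitors 11.3 and 10.3 CPM. With the states weighted alike in both libraries the log2 ratio was 0.25, in place of 0.72, and the call was lost. Committed preadipocytes were 20.6% of LPCAT3-AKO fibroblasts and 13.9% of control fibroblasts. Thinned to 2000 UMIs, 28.7% and 24.5% of committed preadipocytes had a Cxcl14 UMI, and 1.20% and 1.48% of interstitial progenitors. Across the 9 classes with 50 cells or more in both libraries its pattern was most like that of Pamr1, Col6a3 and Dsel (Pearson r of 0.97, 0.96 and 0.96 over classes, a description of class sums that share a library).

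Cxcl16 (ENSMUSG00000018920) was highest in mature dendritic cells, the Ccr7 cells that move to lymph nodes: 740 CPM (579 to 932) in 14 LPCAT3-AKO cells and 773 CPM (667 to 890) in 39 control cells. Type 1 dendritic cells had 235 CPM (198 to 277) and 173 CPM (145 to 204), and type 2 cells 193 CPM (159 to 232) and 149 CPM (114 to 192), with intervals of the 2 types overlapping within each library. Macrophages had 57.4 and 60.4 CPM, and fibroblasts 34.5 and 33.2 CPM, and neither class differed by the size rule. Among fibroblasts committed preadipocytes had 66.9 and 87.8 CPM and interstitial progenitors 17.4 and 18.8 CPM, the same order as for Cxcl12 and Cxcl14. In the remaining fibroblasts, outside the named states, Cxcl16 was lower by the size rule (39.2 and 61.8 CPM, ratio 0.635, 0.485 to 0.832), as was Cxcl1 (282 and 460 CPM), where 2.86% of genes were higher and 4.55% lower. Adam10, a protease that releases Cxcl16 from the membrane, stood at 131 and 132 CPM in macrophages and 46.0 and 47.9 CPM in fibroblasts.

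The receptor of Cxcl16, Cxcr6, lay in lymphoid cells (64.2% of UMIs in LPCAT3-AKO and 51.6% in control). T cells had 111 CPM (82.3 to 146) in LPCAT3-AKO and 51.3 CPM (30.4 to 81.1) in control, from 50 and 18 UMIs, and ILC2 cells 291 and 321 CPM. Pooled lymphoid cells had 102 and 48.2 CPM, higher by the size rule. Cxcr3, the receptor of Cxcl9 and Cxcl10, had 33.2 CPM (18.6 to 54.8) in LPCAT3-AKO and 79.8 CPM (53.0 to 115) in control T cells, 45.4 and 46.9 CPM in type 1 dendritic cells, and 7.93 and 6.44 CPM in macrophages, which held 61.4% and 58.8% of its UMIs. In the list of 20 other ligands, receptors, decoys and proteases 6 were measured in fibroblasts and 5 in macrophages, and none passed the size rule in either class. Ccrl2, a non-signalling receptor of the family, was the gene of that list past it in pooled dendritic cells (123 and 78.0 CPM), and Ackr1 in endothelial cells.

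Patterns over the 9 classes were compared by Pearson r of log2(CPM + 1), with CPM averaged over both libraries and marker genes of the gates left out, as a description without a test. Cxcl13 was most like Adamtsl1, Osr2 and Ptgis (r of 0.99, 0.98 and 0.98) and Cxcl12 most like Ptprm, Hspa12b and Hecw2 (0.96 each). Cxcl1 lay nearest to Egfr (0.98), Cxcl2 to Siglec1 (0.98), Cxcl10 to Npc2 (0.94), Cxcl16 to Tbc1d15 (0.95), Cxcl9 to AA467197 (0.94) and Cxcr4 to Pik3r5 (0.97). Among the members the closest pair was Cxcl13 with Cxcl14 (0.85), followed by Cxcl1 with Cxcl13 (0.84), and the lowest value was that of Cxcl14 with Cxcr4 (-0.53).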

How the data were processed

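The deposited values are UMI counts per gene and cell, made by the authors with Cell Ranger 6.1.2 on build mm10, per the submitters' processing notes, which also list Seurat 4.10; strand and multi-mapping settings are not stated there, and Cxcl1, Cxcl2 and Cxcl3 are similar paralogs. Tissue was digested with 0.3% collagenase for 40 min, per the labels' protocols. Cells with at least 500 genes and at most 10% mitochondrial UMIs were kept, and the top Scrublet scores, at 0.8% per 1000 cells, were removed (1088 LPCAT3-AKO and 1235 control cells, 9.33% and 9.94%). Of symbols listed more than once, 40 entries were dropped. A class needed at least 3 markers and 40% of its list with a UMI, with no other class above 0.67 of that share; 93 and 64 fibroblasts and 454 and 464 macrophages lay near a limit. Interferon-high cells had at least 7 of 10 markers. UMIs were summed per class, as CPM with exact Poisson intervals, Clopper-Pearson intervals for shares and exact binomial ones for ratios (95%). Log2 ratios add 1 CPM. Only classes with 50 cells in both libraries were compared; a count of 0 was read as under 3 counts. Named genes are the members, their pathway list by count and by receptor, the comparison lists, and the 3 nearest patterns. The size rule was run on simulated Poisson counts with no spread between mice and with changes larger than the ratio limit. That run does not check calls near the limits. Members and lists were chosen with earlier results of these data known. Alternatives covered scaling, level and ratio limits, doublets, clusters, a stricter gate, means over cells, thinning and left-out cells. Python 3.11.15, scanpy 1.11.5 and scipy 1.17.1 were used.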

Additional observations from a re-analysis of the deposited data

Results flagged for a closer look

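By the size rule, 4 members were higher in LPCAT3-AKO in 1 or more cell classes and lower in others. Only classes with 50 cells in both libraries and at least 3 UMIs of the gene in each were taken. Log2 ratios of opposite sign that did not pass the rule are not listed. For type 1 and type 2 dendritic, T and NK cells the share of all genes past the rule is not given. Their calls therefore cannot be set against it. In pooled dendritic cells 5.74% of genes were higher and 3.04% lower, and in pooled lymphoid cells 3.47% and 5.70%. With 1 library per group none of these differences between classes was tested. The ratio of Cxcl1 was positive in epithelial cells (1.07), where 11 of 15 dissociation and immediate early genes were also higher, and negative in fibroblasts (-0.832), blood endothelial cells (-0.693) and NK cells (-1.53), the last from 6 and 25 UMIs. In endothelial and NK cells Cxcl1 was at 4.85% to 8.95% of the fibroblast level, and the part of free RNA was not tested. The ratio of Cxcl2 was positive in type 2 dendritic cells (0.992), where 72.5% of the LPCAT3-AKO UMIs came from 1 cell, and in epithelial cells (0.79), and negative in fibroblasts (-0.794), blood endothelial cells (-1.01), T cells (-1.47) and NK cells (-1.38). In T and NK cells it rests on 21 and 8 LPCAT3-AKO UMIs and on 46 and 30 control UMIs. The part of free macrophage RNA was not tested, and no difference is read there. Endothelial Cxcl2 was at 1.07% of the macrophage level in LPCAT3-AKO and 1.79% in control. C1qa was at 1.08% and 0.718% there, C1qb at 0.893% and 0.972%, and Apoe at 9.76% and 7.39%. Control T and NK cells had 2.94% and 2.61% for Cxcl2. The part of free RNA in endothelial Cxcl2 was not tested, and no difference is read from it either. Cxcl9 had a positive ratio in fibroblasts (0.585) and blood endothelial cells (0.774) and a negative one in type 1 dendritic cells (-1.17). Cxcl10 had a positive ratio in blood endothelial cells (1.24), from 19 and 8 UMIs, and a negative one in type 1 dendritic cells (-1.11) and T cells (-1.45), the last from 11 and 24 UMIs.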

How the results depend on the processing

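No paired analysis was possible because each group has 1 library, so no replicate could be left out either. In fibroblasts the lower calls of Cxcl1 and Cxcl2 held under every alternative run except a ratio limit of 2, which left 0. Of the 2 higher calls, 1 (Cxcl14) was left with a 50 CPM filter, a stricter gate, the mean over cells, thinning to 2000 UMIs, without interferon-gated cells and without the top cell, and 0 with a ratio limit of 2 or the states weighted alike. The Cxcl9 log2 ratio was as large or larger without the top cell (0.78) and without interferon-gated cells (0.68). In macrophages, with 0 calls, removing the level filter gave 1 higher (Cxcl14) and 1 lower (Cxcl9). In dendritic cells 1 higher call (Cxcl2) appeared without dividing cells. The 2 lower calls there became 1 (Cxcl9) with a ratio limit of 2 and thinning, and 0 in clusters built without CXC genes. In endothelial cells the 2 higher calls became 1 with median-of-ratios scaling, the 50 CPM filter, the ratio limit, thinning, and without interferon-gated cells or the top cell, and 0 in clusters and as a mean over cells. With that scaling the Cxcl10 log2 ratio was 1.22, beside 1.24, with a level at the 20 CPM limit. The 2 lower calls became 1 (Cxcl2) with the ratio limit, clusters and thinning. Clusters reversed the log2 ratios of Cxcl10 in dendritic cells (0.11), Cxcl1 in endothelial cells (0.046) and Cxcl10 in endothelial cells (-0.18). The clusters do not hold the same cells as the gates. Monocyte markers came second in the largest dendritic cluster and mural markers in the endothelial cluster. The cause of the reversals was not tested. The leave-out of the top cell was chosen after seeing the data. The stricter gate left 10 and 16 dendritic and 41 and 46 endothelial cells, under the 50 needed, so it gave no values there.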
